A study of Danio rerio with 26 samples.

Results

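Most of the genes described here encode proteins that make ribosomes in the nucleolus: subunits and partners of RNA polymerase I, the core proteins of the small nucleolar ribonucleoproteins (snoRNPs), and the assembly factors of the small and the large ribosomal subunit. A list of 49 genes was matched by symbol, ignoring case, and RRS1 by its identifier (ENSDARG00000003941). Of the 49, 47 were found under 1 identifier each among the 32105 genes that both count tables share. The symbols pes and brix1 had no identifier, so values of the annotated PES1 (ENSDARG00000018902) are given apart and are not counted among the 47. No measured value chose the genes by rule, but the list was drawn up with earlier results of these data known.

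Libraries for sequencing were made from total RNA of the skin of 26 males, each fish giving 1 library. All of the fish, in every group, were treated with rotenone, which blocks complex I of the mitochondrial respiratory chain. The groups were fish of strain AB JxTu aged 1 year at 3.75 nM (n = 9), fish of the same strain and age at 37.5 nM (n = 9), and fish of strain AB JxTu Tg(flk:mCherry) aged 3 years at 37.5 nM (n = 8). Age and the transgene cannot be told apart, and there were no untreated fish. The fish numbers in the titles form separate ranges, here the low run and the high run, with 4 low-number fish in each group and 5, 5 and 4 high-number fish at 3.75 nM, at 1 year and 37.5 nM, and at 3 years. In that order the low run holds numbers 164 to 167, 173 to 177 and 178 to 181. The high run holds 189 to 193, 198 to 202 and 194 to 197. Each group is thus its own block of numbers within a run, and block and group cannot be told apart there. The labels do not explain the numbers. The 9 fish at 3.75 nM were also deposited in a table of their own, so concentration and deposit cannot be told apart. Total counts per fish ranged from 25454674 to 35162246, and all 47 genes passed the filter on low counts in every comparison. Markers of keratinocytes, the main cells of the epidermis, summed to 37218 CPM (counts scaled to library size) or more in every fish. Their levels were unequal. The highest median was that of krt5, between 14800 and 46800 CPM, while cyt1l, cyt1, krt92 and 1 JUP identifier had medians of 0.141, 0.569, 1.01 and 3.01 CPM. None of the 27 keratinocyte or 18 dermal fibroblast marker identifiers was at 0 in all fish.

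Ribosome production starts in the nucleolus, where RNA polymerase I transcribes a long precursor of the ribosomal RNAs. Box C/D snoRNPs guide methylation of this precursor and box H/ACA snoRNPs guide conversion of uridine to pseudouridine, while separate sets of GTPases, helicases, nucleases and scaffold proteins cut and fold the parts that become the small and the large subunit. Growing and dividing cells make many ribosomes, and in animals the transcription factor MYC is known to raise many of these genes together.

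On a scale corrected for gene length (TPM, a share of all transcripts), the most abundant of the 47 transcripts was ncl, which encodes nucleolin, a pre-rRNA binding protein, with a median of 191 TPM over the 26 fish and a range from 110 to 371 TPM. The RNA helicase gene ddx21 followed at a median of 162 TPM (105 to 233 TPM). Next came npm1a, which encodes the nucleolar chaperone nucleophosmin, at 78.2 TPM, and the box C/D genes nop56 at 70.1 TPM and fbl at 66.2 TPM. The ranges of these 5 genes overlapped from each to the next. The order of the first and second gene was not the same in every group: at 1 year and 3.75 nM ncl averaged 259 ± 73.4 TPM (SD, n = 9) and ddx21 148 ± 23.9 TPM, while at 1 year and 37.5 nM ncl averaged 180 ± 15.5 TPM (n = 9) and ddx21 195 ± 25.7 TPM. The lowest medians were those of polr1b, a catalytic subunit gene of RNA polymerase I, at 4.78 TPM, and of pprc1, which encodes a transcriptional coactivator, at 4.61 TPM.

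**Figure D1:**
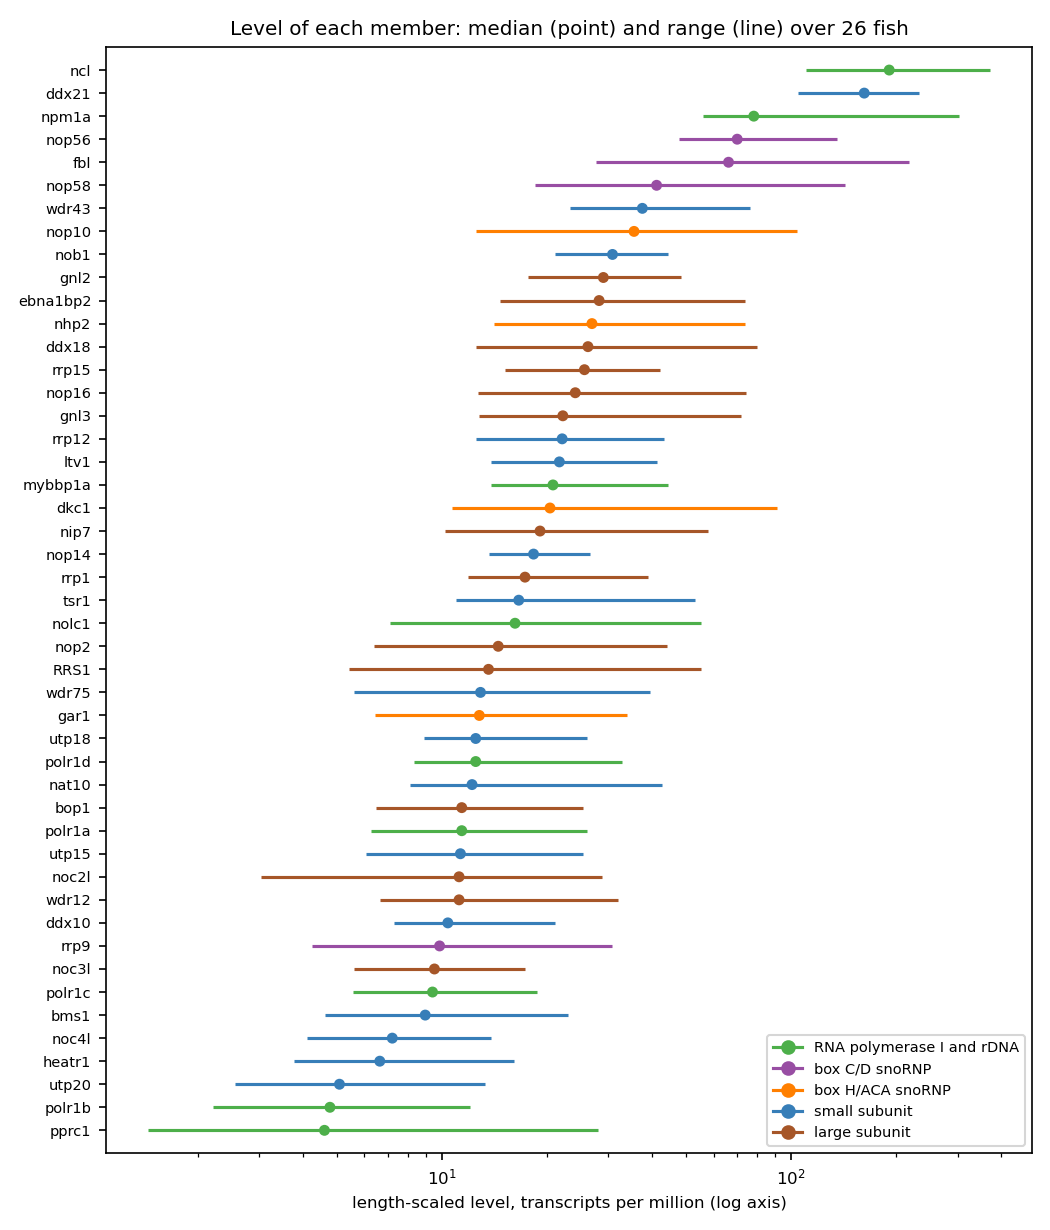
Length-scaled level of each of the 47 genes in TPM (log axis), with the median of 26 fish as a point and the range as a line, coloured by role. Medians run from 191 TPM for ncl to 4.61 TPM for pprc1, and pprc1 also has a wide range, from 1.44 to 28.0 TPM.

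The 4 low-number fish at 3.75 nM stood apart from all others in the average level of the 47 genes. The log2 CPM of each gene was taken against its own mean over the 26 fish and averaged over the 47 genes. These averages were 0.78, 0.82, 1.08 and 0.86 in the 4 low-number fish at 3.75 nM, with 46 of the 47 genes above their own mean in each of them. In the 5 high-number fish at 3.75 nM the averages were 0.35, 0.09, -0.15, -0.30 and -0.14. At 1 year and 37.5 nM they lay between -0.60 and -0.04 with a median of -0.21, and at 3 years between -0.43 and 0.47 with a median of -0.28. The low-number fish at 3.75 nM were therefore above every other fish, while the high-number fish at 3.75 nM overlapped both groups at 37.5 nM. At 3 years, replicates 5 and 2 had the highest averages, 0.47 and 0.34, and the other 6 fish were at 0.06 or below.

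**Figure D2:**
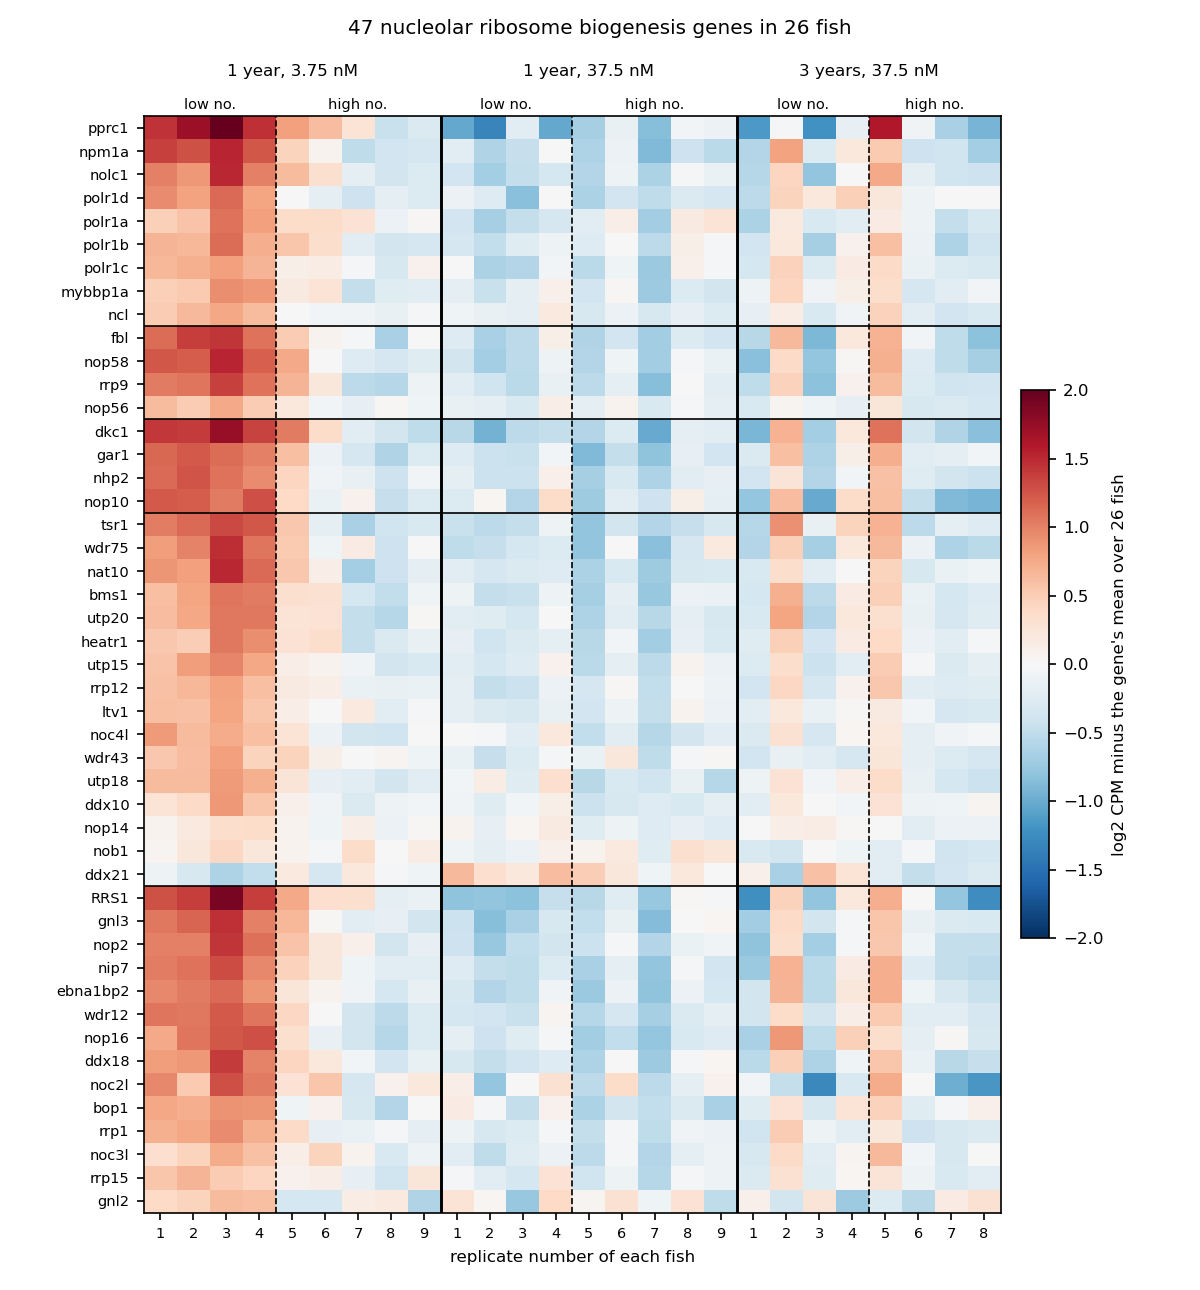
Log2 CPM of each of the 47 genes minus that gene's mean over 26 fish, with genes in rows by role and fish in columns by group and fish-number run. The 4 low-number fish at 3.75 nM are above the mean in 46 of 47 genes, and ddx21 is the exception.

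The comparison of 37.5 with 3.75 nM at 1 year asks how the skin differs between rotenone concentrations. At 37.5 nM 32 of the 47 genes were lower and none was higher at an adjusted p under 0.05 (edgeR's quasi-likelihood test on 9 against 9 fish, Benjamini-Hochberg adjustment over all 18793 genes tested). Over all genes tested 3.00% were called lower and 1.28% higher. The median log2 fold change of the 47 genes was -0.76, against -0.01 over all genes, and 46 of the 47 values were negative. The values ran from -1.72 for pprc1 to 0.44 for ddx21, and the adjusted p of the 32 genes lay between 0.031 and 0.0485. All fish at 3.75 nM were deposited apart from those at 37.5 nM, so this difference cannot be told apart from one between deposits. In bulk skin, fewer cells of a type and less RNA per cell cannot be told apart. The count rests on single fish. edgeR called 0 of the 47 without any 1 of replicates 1, 2, 3 and 7 at 37.5 nM. It also called 0 without any 1 of replicates 1, 2, 3 and 4 at 3.75 nM. It called 1 without replicate 5 and 16 without replicate 4 at 37.5 nM. The shares of all genes called in those fits are not given here. A loss of calls among the 47 therefore cannot be told apart from one over all genes. In each of the 18 fits that left out 1 fish, 45 of the 47 had an unadjusted p under 0.05. The median stayed between -0.84 and -0.66. With all fish in, 45 of the 47 and 4311 of all 18793 genes had an unadjusted p under 0.05. That share of all genes was not counted in the fits that left out 1 fish.

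Among the genes listed under RNA polymerase I and ribosomal DNA, 7 of 9 were called lower, against 3.00% of all genes. All 9 values were negative, with a median of -0.70. This role also holds pprc1, which encodes a coactivator and no part of the polymerase. pprc1 (ENSDARG00000090337), whose product is in mammals a coactivator of growth-related transcription, was at 33.8, 40.5, 65.1 and 34.2 CPM in the 4 low-number fish at 3.75 nM and at 21.9, 18.9, 14.9, 9.02 and 10.03 CPM in the 5 high-number fish there. At 1 year and 37.5 nM it lay between 4.91 and 11.9 CPM with a median of 7.79 CPM. All low-number fish and 3 of the 5 high-number fish at 3.75 nM were above the range at 37.5 nM, and the other two were within it. The fitted log2 fold change was -1.72 ± 0.33 (SE; adjusted p = 0.031, edgeR). npm1a (ENSDARG00000014329) was at 282, 264, 313 and 258 CPM in the low-number fish at 3.75 nM, at 149, 114, 76.6, 83.7 and 86.7 CPM in the high-number fish, and between 59.5 and 110 CPM at 1 year and 37.5 nM. Of the high-number fish 2 were above that range. npm1a fell by 1.15 ± 0.27 on the log2 scale. nolc1, which encodes a phosphoprotein that binds snoRNPs, fell by 1.01 ± 0.22.

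The polymerase subunit genes fell by less. polr1a (ENSDARG00000098375), the largest subunit of RNA polymerase I, was at 49.8, 52.9, 76.3 and 63.5 CPM in the low-number fish at 3.75 nM and at 45.9, 46.3, 43.6, 33.1 and 36.3 CPM in the high-number fish. At 1 year and 37.5 nM it lay between 22.1 and 43.4 CPM with a median of 28.2 CPM, so that all low-number fish and 3 of the 5 high-number fish were above the range of the higher concentration. The log2 fold changes were -0.70 ± 0.17 for polr1a, -0.66 ± 0.18 for polr1b, and -0.65 ± 0.17 and -0.79 ± 0.22 for polr1c and polr1d, subunits shared with RNA polymerase III. ncl had a log2 fold change of -0.47 ± 0.13 (adjusted p = 0.0521) and mybbp1a, whose mammalian product restrains RNA polymerase I, one of -0.61 ± 0.17 (adjusted p = 0.053), and neither passed the threshold.

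Of the box C/D snoRNP genes 3 of 4 were called lower, against 3.00% of all genes. All 4 values were negative, with a median of -1.04. fbl (ENSDARG00000053912) encodes fibrillarin, the methyltransferase of these particles, and was at 139, 168, 172 and 137 CPM in the low-number fish at 3.75 nM, at 90.8, 67.7, 63.5, 41.1 and 64.2 CPM in the high-number fish, and between 39.5 and 69.6 CPM at 1 year and 37.5 nM. Its log2 fold change was -1.11 ± 0.24. nop58, a core protein of the particle, fell by 1.09 ± 0.25 and rrp9, a protein of the snoRNP needed for the first cuts of the precursor, by 0.98 ± 0.24. nop56, the partner of nop58, averaged 176 ± 42.6 CPM (SD, n = 9) at 3.75 nM and 132 ± 14.4 CPM (n = 9) at 37.5 nM, and its log2 fold change of -0.44 ± 0.13 did not pass (adjusted p = 0.0542).

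Of the box H/ACA snoRNP genes 3 of 4 were called lower, against 3.00% of all genes. All 4 values were negative, with a median of -0.97. dkc1 (ENSDARG00000016484) encodes dyskerin, the pseudouridine synthase, which also stabilizes telomerase RNA. It was at 76.1, 75.3, 95.4 and 72.6 CPM in the low-number fish at 3.75 nM and at 58.4, 36.8, 24.2, 22.0 and 20.1 CPM in the high-number fish, against 14.1 to 24.9 CPM at 1 year and 37.5 nM. Every low-number fish was above every fish at the higher concentration, and 3 of the 5 high-number fish were within its range. The log2 fold change was -1.44 ± 0.28 (adjusted p = 0.031, edgeR). The small partner proteins of dyskerin gave -1.01 ± 0.24 for gar1 and -0.92 ± 0.21 for nhp2, both called, and -0.83 ± 0.24 for nop10, which did not pass (adjusted p = 0.055).

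**Figure D3:**
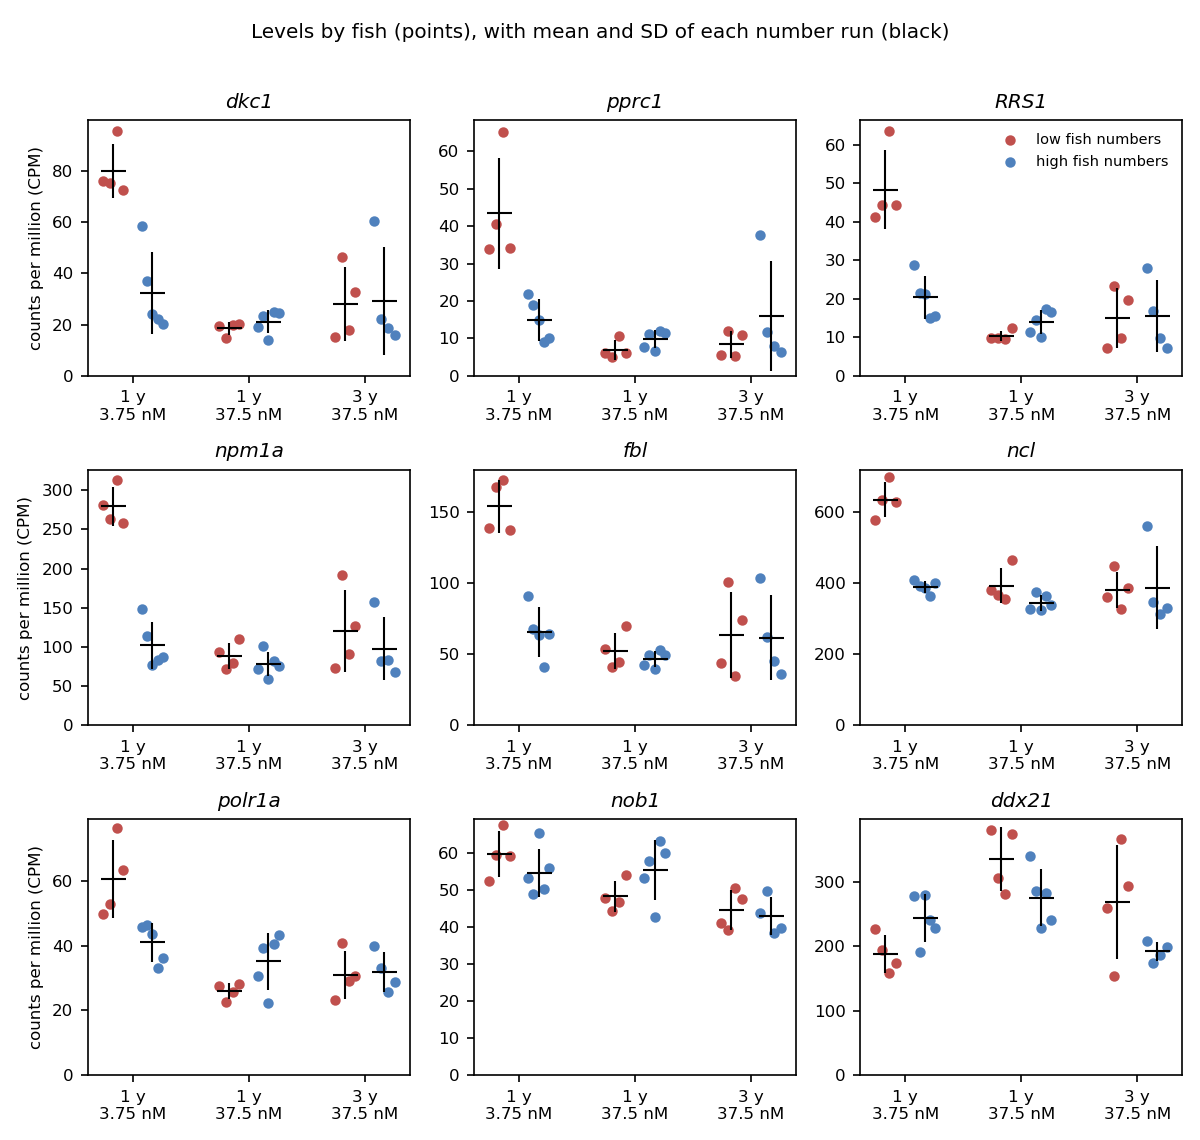
CPM of 9 genes in each fish (points) by group, with low-number fish in red and high-number fish in blue, and the mean and SD of each run in black. For dkc1 the low-number fish at 3.75 nM lie between 72.6 and 95.4 CPM, above all other fish, while ddx21 shows the low-number fish at 3.75 nM at 159 to 227 CPM and those at 1 year and 37.5 nM at 281 to 382 CPM.

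Of the small-subunit factors 9 of 16 were called lower, against 3.00% of all genes. Of the 16 values 15 were negative, with a median of -0.57. The largest log2 fold changes of those called were -1.06 ± 0.25 for tsr1, a GTPase-like factor of late maturation, -0.99 ± 0.22 for wdr75 and -0.97 ± 0.24 for nat10, an RNA acetyltransferase. tsr1 (ENSDARG00000007744) was at 61.5, 66.4, 75.7 and 72.2 CPM in the low-number fish at 3.75 nM, at 44.3, 26.6, 19.4, 22.9 and 24.5 CPM in the high-number fish, and between 17.6 and 28.4 CPM at 1 year and 37.5 nM. Only 1 of the high-number fish was above that range. The GTPase gene bms1 fell by 0.79 ± 0.20, the early scaffold genes utp20, heatr1 and wdr43 by 0.76 ± 0.19, 0.71 ± 0.18 and 0.51 ± 0.13, the export factor rrp12 by 0.57 ± 0.14 and ltv1, a late assembly factor, by 0.56 ± 0.13.

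Of the small-subunit factors 7 did not pass the threshold, among them nob1, nop14 and ddx21. nob1 (ENSDARG00000016080), the endonuclease that makes the last cut of the small-subunit RNA, averaged 56.9 ± 6.50 CPM (SD, n = 9) at 3.75 nM and 52.2 ± 7.25 CPM (n = 9) at 37.5 nM, with overlapping ranges of 49.0 to 67.6 and 42.6 to 63.3 CPM. Its log2 fold change was -0.15 ± 0.09 (adjusted p = 0.358). nop14 had a log2 fold change of -0.24 ± 0.08 (adjusted p = 0.103). ddx21 (ENSDARG00000063626), whose human product also binds ribosomal RNA and promoters transcribed by RNA polymerase II, was the only member with a positive value. It was at 227, 194, 159 and 174 CPM in the low-number fish at 3.75 nM, at 278, 192, 281, 241 and 229 CPM in the high-number fish, and between 229 and 382 CPM with a median of 285 CPM at 1 year and 37.5 nM. The low-number fish at 3.75 nM were all below the range at 1 year and 37.5 nM, and the high-number fish lay on both sides of its lower end. The log2 fold change of 0.44 ± 0.13 did not pass (adjusted p = 0.0559). The remaining uncalled genes of this group were utp15, utp18, noc4l and ddx10, with values from -0.61 to -0.44.

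Of the large-subunit factors 10 of 14 were called lower, against 3.00% of all genes. All 14 values were negative, with a median of -0.90. RRS1, which helps to place the smallest ribosomal RNA into the large subunit, was at 41.1, 44.3, 63.5 and 44.3 CPM in the low-number fish at 3.75 nM, at 28.7, 21.6, 21.3, 15.0 and 15.5 CPM in the high-number fish, and between 9.61 and 17.4 CPM at 1 year and 37.5 nM. In this gene 3 of the 5 high-number fish were also above the range at 37.5 nM. The log2 fold change was -1.43 ± 0.26 (adjusted p = 0.031, edgeR). gnl3, the GTPase nucleostemin, fell by 1.06 ± 0.24, nop2, an RNA cytosine methyltransferase, by 1.03 ± 0.21 and nip7 by 1.01 ± 0.21. wdr12, ebna1bp2 and nop16 fell by 0.92 each, the helicase gene ddx18 by 0.88 ± 0.21, rrp1 by 0.62 ± 0.16 and noc3l by 0.59 ± 0.13. bop1, a partner of wdr12, had a log2 fold change of -0.65 ± 0.20 (adjusted p = 0.0664), and noc2l, rrp15 and the GTPase gene gnl2 had values of -0.70, -0.44 and -0.16 that did not pass either. PES1, the third protein of the complex of bop1 and wdr12, had a log2 fold change of -0.80 ± 0.19 (adjusted p = 0.0329).

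Within the runs of fish numbers the difference between concentrations was unequal in size. Among the low-number fish (4 against 4) edgeR called 44 of the 47 genes lower at 37.5 nM and ddx21 higher, with a median of -1.18, against 13.8% of 18820 genes called lower and 12.9% called higher. The log2 fold changes there reached -2.68 ± 0.31 for pprc1, -2.25 ± 0.17 for RRS1 and -2.13 ± 0.14 for dkc1, and ddx21 was at 0.81 ± 0.15 (adjusted p = 0.00426). Among the high-number fish (5 against 5) edgeR called 0 of the 47, as it did over all genes (0% of 18929). An unadjusted p under 0.05 was found for 9 of the 47 and for 995 of the 18929 genes. The median was -0.33, 45 of 47 values were negative, and pprc1, dkc1 and RRS1 were at -0.65 ± 0.27, -0.64 ± 0.30 and -0.58 ± 0.21. When the 4 low-number fish at 3.75 nM alone were left out, an alternative chosen after seeing the data, edgeR called 0 of the 47 and the median was -0.28. There 16 of the 47 had an unadjusted p under 0.05, and the share of all genes at that threshold was not counted. Without the 5 high-number fish at 3.75 nM it called 44, with a median of -1.18. The shares of all genes called in the fits without either run of the 3.75 nM fish are not given here. These counts alone therefore do not show what is particular to the 47.

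The ranges of single fish were compared next. In 0 of the 47 genes were all 9 fish at 3.75 nM above all 9 at 37.5 nM, against 0.0160% of 18793 genes. The 4 low-number fish at 3.75 nM were above all 9 fish at 37.5 nM in 44 of the 47 genes, the exceptions being ddx21, nob1 and nop14, against 9.29% of all genes. The 5 high-number fish were above all 9 in 0 of the 47, against 0.0213%. Both counts of the separate runs were chosen after the values were seen.

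The difference between concentrations was itself tested between the runs (high-run difference minus low-run difference, 6 group-by-run means of the 26 fish). edgeR called 6 of the 47, each with a smaller fall in the high run, against 1.12% of 20482 genes called in that direction. An unadjusted p under 0.05 in either direction was found for 40 of the 47 and for 3817 of the 20482 genes. The 6 were gnl3 at 1.45 ± 0.34 (log2 ± SE), nop2 at 1.32 ± 0.33, wdr12 at 1.1 ± 0.28, polr1a at 1.00 ± 0.27, polr1d at 0.98 ± 0.26 and ltv1 at 0.67 ± 0.18, with adjusted p between 0.0367 and 0.0494. The median over the 47 was 0.93, against -0.08 over all genes. The count ranged from 0 to 26 when 1 fish was left out: it was 0 without replicate 2, 3, 4, 6, 8 or 9 at 37.5 nM or replicate 3, 4, 8 or 9 at 3.75 nM, 1 without replicate 1 at 37.5 nM, 3 without replicate 1 or 2 at 3.75 nM, 10 without replicate 7 at 37.5 nM and 26 without replicate 5 at 3.75 nM, while the median stayed between 0.80 and 1.03. DESeq2 called 22, and edgeR on total counts without normalization factors called 0. The shares of all genes called under these alternatives, and when 1 fish was left out, are not given here.

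**Figure D4:**
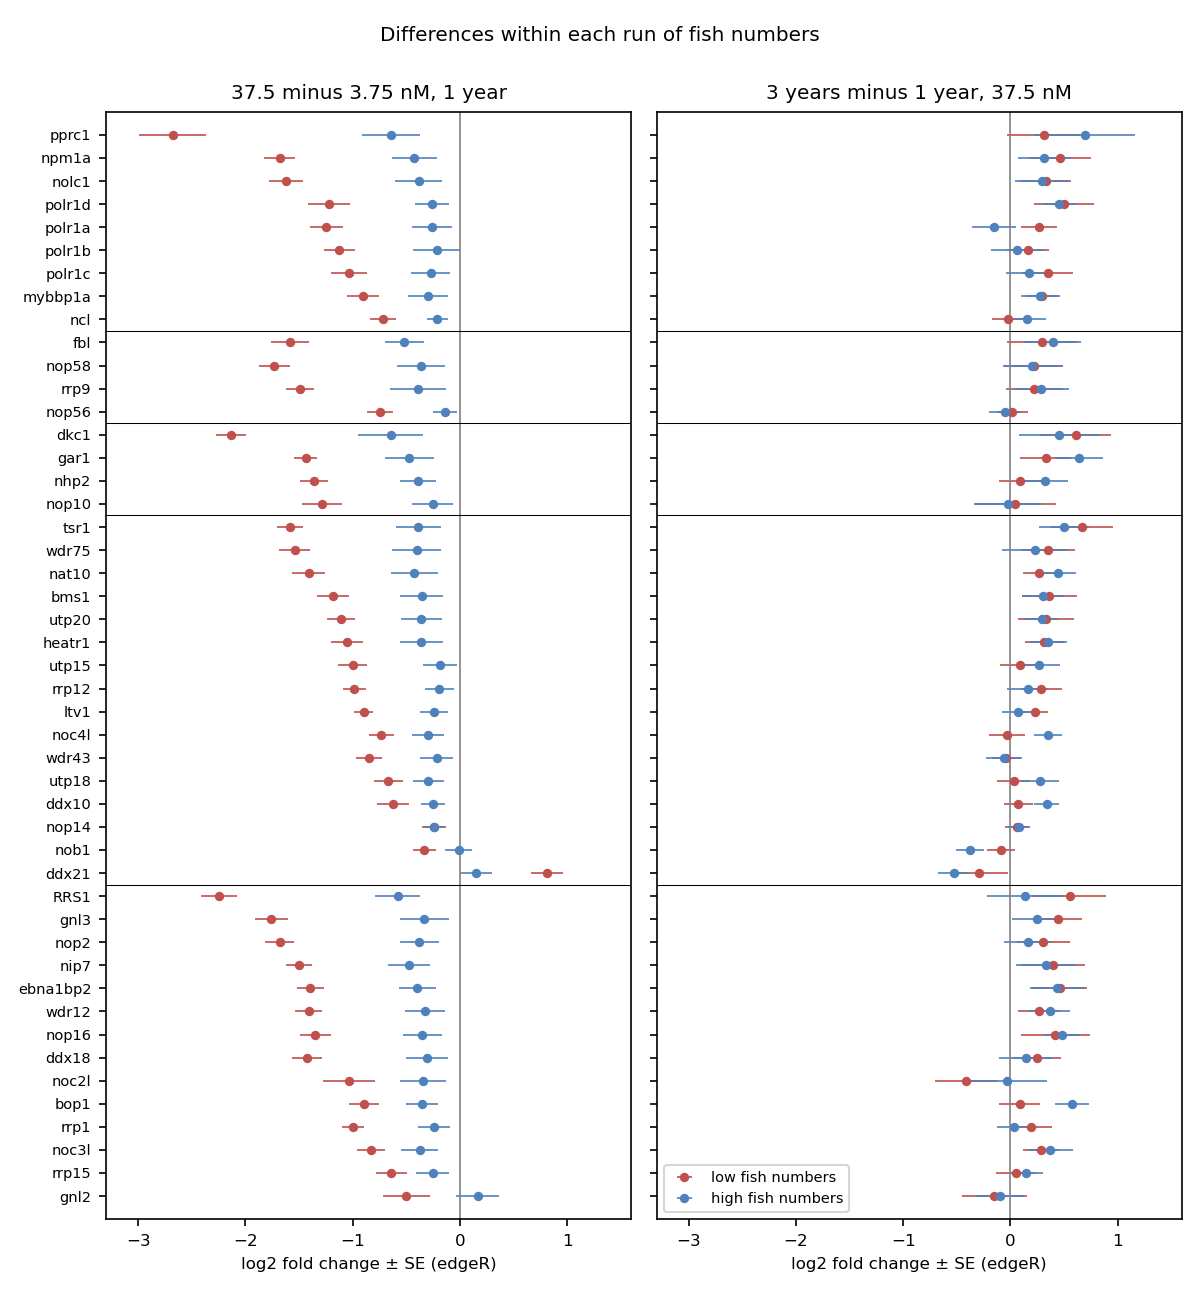
Log2 fold change ± SE (edgeR) of each of the 47 genes within the low-number fish (red) and the high-number fish (blue), for 37.5 minus 3.75 nM at 1 year (left) and 3 years minus 1 year at 37.5 nM (right). On the left the low run has a median of -1.18 and the high run of -0.33; on the right both runs have a median of 0.27.

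The 2 runs were then compared inside each group. At 3.75 nM edgeR called 41 of the 47 genes lower in the high-number fish, against 8.32% of 20482 genes called lower and 8.48% called higher, with a median of -0.92 against 0.13 over all genes. This contrast and the low-run difference between concentrations share the same 4 low-number fish and are not independent. All 4 low-number fish were above all 5 high-number fish in 42 of the 47, against 8.62% of genes, and the exceptions were ddx21, nob1, noc3l, noc2l and nop14. The largest values were -1.52 ± 0.41 for pprc1, -1.44 ± 0.26 for npm1a, -1.31 ± 0.26 for tsr1 and -1.29 ± 0.37 for dkc1. Leaving out 1 of the 9 fish gave 37 to 42 genes. At 1 year and 37.5 nM edgeR called 0 of the 47 between the runs, against 1.21% of all genes, with a median of -0.04. An unadjusted p under 0.05 was found there for 5 of the 47 and for 4174 of all 20482 genes. At 3 years edgeR called 0 of the 47, against 0.918% of all genes, with a median of 0.03. There 2 of the 47 and 3391 of the 20482 genes had an unadjusted p under 0.05.

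Over the 26 fish, with group as a term, 14 of the 47 were lower in the high-number fish and none was higher, against 7.54% of 19784 genes called lower and 6.73% called higher. The median was -0.30. An unadjusted p under 0.05 was found for 27 of the 47 and for 5855 of the 19784 genes. The lowest values were -0.66 ± 0.19 for npm1a, -0.60 ± 0.17 for nop16 and -0.58 ± 0.18 for tsr1, which were called, and -0.57 ± 0.20 for nop10, which was not (adjusted p = 0.0577). nob1 at 0.01, polr1a at -0.03, wdr43 at -0.07 and pprc1 at -0.08 were closest to no difference or above it. utp18 at -0.50 ± 0.10 had the smallest adjusted p (0.00332), and nop14 was called at -0.22 ± 0.05. The other genes called were polr1d, ncl, mybbp1a, utp20, noc4l, ddx10, wdr12, bop1 and rrp1. Without the 3.75 nM group, an alternative added after seeing the data, edgeR called 0 of the 47, and the median was -0.02. In that fit 4 of the 47 had an unadjusted p under 0.05, and the share of all genes at that threshold was not counted. The share of all genes called is not given here for that fit or for the following fits that left out 1 fish. Leaving out 1 fish gave 5 genes (without replicate 2 at 3 years) to 24 (without replicate 5 at 3 years), with 7 to 9 genes without any 1 of replicates 1, 4, 5 and 8 at 1 year and 37.5 nM, replicates 6 and 7 at 3 years, or replicates 1, 2, 3, 4, 6, 7, 8 and 9 at 3.75 nM.

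Cell type markers also differed between the fish of these contrasts. The summed level of the 27 keratinocyte marker identifiers was 71525 to 87394 CPM in the low-number fish at 3.75 nM and 40949 to 54956 CPM in the high-number fish there, which did not overlap, and 50899 to 77815 CPM at 1 year and 37.5 nM. Between the runs at 3.75 nM 7 of these markers were called lower and 1 higher in the high-number fish, against 8.32% and 8.48% of all genes. The 18 dermal fibroblast identifiers summed to 5269 to 22341 CPM in the low-number fish at 3.75 nM, 17498 to 52704 CPM in the high-number fish and 3100 to 59230 CPM at 1 year and 37.5 nM. The 33 skeletal muscle identifiers summed to 5778 to 46065 CPM at 3.75 nM and 4533 to 33563 CPM at 1 year and 37.5 nM, the 19 liver-type plasma protein identifiers to 13 to 1723 and 7 to 293 CPM, the 20 leukocyte identifiers to 264 to 413 and 346 to 632 CPM, and the 8 erythrocyte identifiers to 29 to 101 and 21 to 245 CPM. No marker identifier of these 6 lists was at 0 in all fish. The part of the markers in the differences of the 47 genes was not tested.

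The comparison of 3-year with 1-year fish at 37.5 nM asks how the skin differs with age under 1 concentration, and it shares the 9 fish aged 1 year at 37.5 nM with the comparison of concentrations. edgeR called 0 of the 47 genes, against 1.27% of 18935 genes called in either direction. An unadjusted p under 0.05 was found for 14 of the 47, with 12 positive and 2 negative values, and for 3855 of all 18935 genes. DESeq2 called 1 gene of the 47, polr1d. The median was 0.25, against 0.03 over all genes, and 41 values were positive. The positive values were not shared by all fish at 3 years. The per-fish averages of the 47 genes had a median of -0.28 at 3 years and -0.21 at 1 year. Replicates 2, 4 and 5 at 3 years, at 0.34, 0.06 and 0.47, were above the 1-year range of -0.60 to -0.04. The rest were within it. In 0 of the 47 were all 8 fish at 3 years above all 9 at 1 year, against 0.132% of genes.

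The highest values were those of tsr1 at 0.59 ± 0.19 (log2 ± SE; adjusted p = 0.111), pprc1 at 0.52 ± 0.35, dkc1 at 0.52 ± 0.26 and gar1 at 0.49 ± 0.17. tsr1 was at 20.5, 57.2, 27.5 and 41.5 CPM in the low-number fish at 3 years and at 49.2, 21.1, 26.5 and 25.4 CPM in the high-number fish, against 17.6 to 28.4 CPM at 1 year. For dkc1 the 3-year values were 15.0, 46.2, 17.7 and 32.9 CPM in the low-number fish and 60.5, 22.1, 18.7 and 15.8 CPM in the high-number fish, against 14.1 to 24.9 CPM at 1 year. In both genes 3 fish aged 3 years, replicates 2, 4 and 5, were above the range at 1 year and the other 5 were within it. polr1d, a subunit of RNA polymerases I and III, had the smallest adjusted p of the 47, 0.101, with a log2 fold change of 0.48 ± 0.15.

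The lowest values with age were those of ddx21 at -0.38 ± 0.17, nob1 at -0.25 ± 0.10, noc2l, a gene of the complex that carries large-subunit precursors out of the nucleolus, at -0.21 ± 0.25, and gnl2 at -0.13 ± 0.19. ddx21 averaged 302 ± 53.9 CPM (SD, n = 9) at 1 year and 230.5 ± 71.4 CPM (n = 8) at 3 years. noc2l averaged 19.4 ± 5.11 CPM at 1 year and 16.7 ± 8.50 CPM at 3 years, with 34.3 CPM in replicate 5 at 3 years and 8.35 to 20.6 CPM in the other 7 fish of that age. Of the defining genes, fbl was at 0.35 ± 0.21, nop58 at 0.20 ± 0.20, bop1 at 0.34 ± 0.14, gnl3 at 0.32 ± 0.17, polr1b at 0.10 ± 0.16, ncl at 0.07 ± 0.12, polr1a at 0.02 ± 0.15 and nop56 at -0.02 ± 0.10, none of them called.

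Within the low-number fish the median age difference of the 47 was 0.27, and within the high-number fish also 0.27. In each run edgeR called 0 of the 47, against 0.179% and 0.0995% of all genes. An unadjusted p under 0.05 was found for 1 of the 47 and 3582 of 18977 genes in the low run. In the high run it was found for 9 of the 47 and 3227 of 19092 genes. The difference between the runs was called in 0 of the 47, against 0.0635% of 20482 genes. At an unadjusted p under 0.05 there were 0 of the 47 and 3065 of the 20482 genes. Leaving out 1 fish moved the median to between 0.12, without replicate 5 at 3 years, and 0.30, without replicate 1 at 3 years. The count of called genes then stayed at 0 except for polr1d without replicate 1 and tsr1 without replicate 6 at 3 years. Muscle markers summed to 7560 to 77482 CPM at 3 years and 4533 to 33563 CPM at 1 year and 37.5 nM, and keratinocyte markers to 37218 to 92222 and 50899 to 77815 CPM, and their part in these values was not tested.

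Further genes of the pathway were read from separate lists. Of 127 tested genes on the lists of further ribosome biogenesis factors, 50 were lower and 1 was higher at 37.5 than at 3.75 nM. Their median was -0.46, and 3.00% of all genes were called lower and 1.28% higher. Within the low-number fish 92 were lower and 7 higher, against 13.8% and 12.9% of all genes. Within the high-number fish edgeR called 0, as it did over all genes. By role, 4 of 15 further genes of RNA polymerase I and ribosomal DNA were lower, with the lowest value for the subunit gene POLR1H at -0.80 ± 0.18. Of the snoRNP genes 6 of 13 were lower, led by RUVBL2, an ATPase of the snoRNP assembly machinery, at -1.27 ± 0.27. Of the small-subunit factors 15 of 37 were lower, led by NOL6 at -1.18 ± 0.25, and of the large-subunit factors 19 of 47, led by PPAN at -1.11 ± 0.22. The RNA exosome, which trims ribosomal RNA precursors, had 6 lower genes and 1 higher gene of 15, EXOSC6 at -0.98 ± 0.21 and EXOSC1 at 0.44 ± 0.12 being the lowest and the highest.

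A further list held 82 tested genes with cytosolic ribosomal protein symbols, most of which encode proteins of the finished ribosome. Of these, 1 was called lower at 37.5 than at 3.75 nM, against 3.00% of all genes. It was RPL7L1 at -0.77 ± 0.18, whose product is a ribosomal protein relative found in assembling large subunits. The median of the 82 was 0.08, with 79 positive values. Between the runs over the 26 fish, 76 of the 82 were lower in the high-number fish, against 7.54% of all genes. The median was -0.31. Within each single group few or none were called. At 3.75 nM alone 1 of the 82 was called lower, against 8.32% of all genes, with 80 negative values and a median of -0.19. At 1 year and 37.5 nM 0 were called, with a median of -0.285, and at 3 years 0, with a median of -0.44. Of all genes 1.21% and 0.918% were called in these groups in either direction. At 3.75 nM the 47 assembly genes had 41 called and a median of -0.92. In single fish the average of the ribosomal protein genes, taken as for the 47, was 0.35, 0.21, -0.19 and -0.23 in the 4 low-number fish at 3.75 nM, in which the 47 genes averaged 0.78 or more. Between ages 1 of the 82 was called higher, where 1.27% of all genes were called in either direction, and the median was 0.03.

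**Figure D5:**
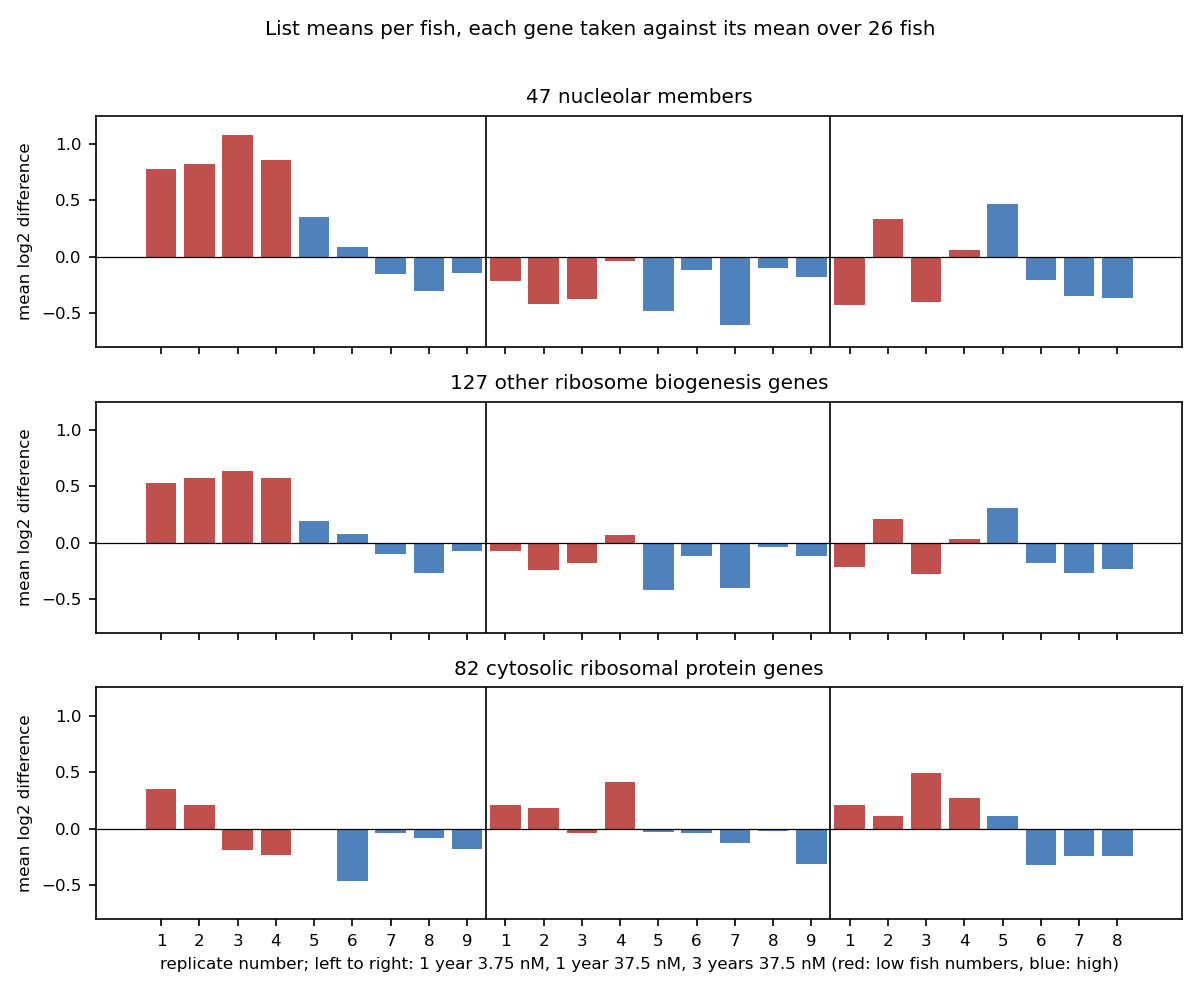
Mean log2 difference of each list per fish, each gene taken against its mean over 26 fish, for the 47 nucleolar genes (top), 127 further ribosome biogenesis genes (middle) and 82 cytosolic ribosomal protein genes (bottom), with low-number fish in red and high-number fish in blue. The 4 low-number fish at 3.75 nM are highest in the top and middle panels but between -0.23 and 0.35 in the bottom panel.

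Of the 16 genes of the MYC network list, 2 were lower and 2 higher at 37.5 than at 3.75 nM, where 3.00% of all genes were called lower and 1.28% higher. Within the low-number fish 5 were lower and 3 higher (13.8% and 12.9% of all genes), and within the high-number fish edgeR called 0 genes in all. Between the runs at 3.75 nM 3 were lower in the high-number fish (8.32% of all genes). The lower genes between concentrations were a MYC gene (ENSDARG00000007241) at -0.91 ± 0.25 (adjusted p = 0.0452) and ODC1, the first enzyme of polyamine synthesis and a known MYC target, at -1.99 ± 0.49 (adjusted p = 0.0352). This MYC gene was at 54.2, 50.7, 69.7 and 45.95 CPM in the low-number fish at 3.75 nM, at 40.2, 19.5, 29.1, 22.9 and 20.2 CPM in the high-number fish, and between 11.8 and 34.5 CPM at 1 year and 37.5 nM. All low-number fish and 1 of the 5 high-number fish were above that range. The higher genes were MXD3 at 0.78 ± 0.19 and MXD4 at 0.43 ± 0.10, which encode partners of MAX that oppose MYC. Unlike the called MYC gene, both overlapped between the runs at 3.75 nM. MXD3 was at 3.65 to 10.27 CPM in the low-number fish there and 4.32 to 8.6 CPM in the high-number fish. MXD4 was at 17.4 to 29.7 and 22.5 to 30.5 CPM. The other MYC gene (ENSDARG00000045695) was at -0.37 and not called. The median of the list was 0.06, with 9 positive and 7 negative values. Of 31 cell cycle genes 5 were lower, all genes of the replication helicase (MCM2, MCM3, MCM4, MCM5 and MCM6), with values from -1.62 to -1.05, and the median of the list was -0.32. In the low-number fish alone 8 were lower, and in the high-number fish alone edgeR called 0. Between the runs most of the cell cycle genes went the other way from the 47 genes. Over the 26 fish 13 of the 31 were higher and 0 lower in the high-number fish, with a median of 0.85. Of all genes 6.73% were called higher there and 7.54% lower. At 3.75 nM 3 of the 31 were higher and 0 lower, against 8.48% and 8.32% of all genes. The median there was 0.88, and 10 of the 31 values were negative. Between ages edgeR called 0 of the 16 MYC network genes and 4 of the 31 cell cycle genes, the latter higher at 3 years. Of all genes 1.27% were called between ages in either direction.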

How the data were processed

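RNA sequencing counts of zebrafish skin were used as the authors deposited them, as whole-number read counts per gene in 2 tables, with the fish at 3.75 nM in a table of their own. Per the labels' protocols, the library kit was TruSeq RNA v2, which does not mark strand, so reads of overlapping antisense genes cannot be told apart. The submitters' processing notes name CASAVA 1.8.2, STAR 2.4.1d, featureCounts 1.4.6-p4 and the build GRCz10; for annotation and filters, none is stated there. The deposited RPKM tables, also made by the authors, were used only to recover relative gene lengths, from which TPM was computed; the RPKM divisors repeat over genes, and lengths are relative.

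Counts were tested with edgeR 4.0.16 (filterByExpr, TMM, quasi-likelihood test; R 4.3.3) and adjusted over all genes by the Benjamini-Hochberg method, with a threshold of 0.05. CPM used TMM library sizes, and log2 CPM a prior count of 2. Age and concentration were fitted on their groups, and runs and interactions on all 26 fish. The procedure was tested on simulated data with independent genes, a common dispersion and no fish or run effects. That test therefore cannot show how reliable calls are that rest on a few fish. Alternatives were RLE factors, total counts, no filter, DESeq2 1.42.0, number run as a term or each run alone, a 26-fish fit, and leaving out each fish. Nothing says whether fish shared tanks, so p-values measure the spread between these fish.

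The 47 genes and all lists were chosen with earlier results of these data known. Named were genes called in a comparison, the 4 highest and 4 lowest log2 fold changes, RRS1, defining genes, and from other lists the extremes and the MYC network genes called; single genes outside this rule were named after their values were seen. No sequence was printed and no coordinates were used.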

Additional observations from a re-analysis of the deposited data

Results flagged for a closer look

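In 5 of 144 groups of values, 1 fish lay far from the others of its group by Dixon's criterion, which chance meets in about 1 in 20 groups. In replicate 4 at 1 year and 37.5 nM, ncl was at 465 CPM and fbl at 69.6 CPM. In replicate 5 at 3 years, pprc1 was at 37.7 CPM, wdr43 at 76.8 CPM and noc2l at 34.3 CPM.

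The difference between concentrations differed between the fish-number runs, by a test of the difference itself (edgeR, adjusted p between 0.0367 and 0.0494), in 6 genes. Each had a smaller fall in the high run, and 1.12% of 20482 genes were called in that direction. When 1 fish was left out, the count ranged from 0 to 26. The log2 differences below are those of the fit with all fish in. The log2 differences, high run minus low run, were 1.00 for polr1a, 0.98 for polr1d, 0.67 for ltv1, 1.1 for wdr12, 1.32 for nop2 and 1.45 for gnl3.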

How the results depend on the processing

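Except for age, called genes were counted in the direction of the main result only, so these counts could not change direction. Apart from each run alone, the share of all genes called was not set beside the counts under an alternative, here or above. None of the medians or of the called genes recomputed changed sign. Some genes not called in their comparison did. gnl2 between concentrations was 0.17 in the high-number fish alone and 0.18 without the 4 low-number fish at 3.75 nM. With age, nop56 was 0.02 on total counts and 0.02 in the low-number fish, ncl -0.02 in the low-number fish and polr1a -0.15 in the high-number fish; leaving out 1 fish gave -0.03 to 0.12 for ncl, -0.08 to 0.01 for nop56, -0.05 to 0.09 for polr1a and -0.04 to 0.16 for polr1b. Between runs, pprc1 was 0.71, wdr43 0.16, polr1a 0.26 and RRS1 0.26 without the 3.75 nM group, and nob1 0.00 on total counts; leaving out 1 fish gave -0.37 to 0.08 for pprc1, -0.07 to 0.05 for polr1a and -0.01 to 0.05 for nob1. For age and runs only the named genes were recomputed. The concentration count of 32 was 11 with no filter on low counts, 0 in the high-number fish alone and 0 without the 4 low-number fish at 3.75 nM, and 0 to 42 when 1 fish was left out; its median of -0.76 was -1.18 in the low-number fish alone and without the 5 high-number fish at 3.75 nM, -0.33 in the high-number fish alone, -0.28 without the 4 low-number fish, and -0.84 to -0.66 when 1 fish was left out. The run count of 14 was 8 on total counts, 9 with no filter, 0 without the 3.75 nM group and 5 to 24 when 1 fish was left out (median -0.39 to -0.24). The age count of 0 was 1 with DESeq2 and 0 to 1 when 1 fish was left out (median 0.12 to 0.30). The count of 41 between runs at 3.75 nM was 37 to 42 when 1 fish was left out (median -1.01 to -0.82). The interaction count of 6 was 0 on total counts, 0 with no filter, 22 with DESeq2 and 0 to 26 when 1 fish was left out (median 0.80 to 1.03). For single genes, 1316 concentration values were recomputed under an alternative, over called and uncalled genes together. Of these, 400 lost their call and 105 gained one. Only values of the 32 genes called in the main fit could lose a call, and only those of the other genes could gain one. No paired analysis was possible because the replicate numbers follow accession order and pair no fish. All alternatives to the comparison of runs at 3.75 nM and to the interaction, and those that leave out a group or a run of the 3.75 nM fish, were chosen after seeing the data.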
